A study of Mus musculus with 24 samples.

Results

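The mitochondrial ribosomal protein genes were described in cultured D2A1 and D2.1 cells and in the tumors both lines formed. Members were the protein-coding genes whose symbol begins with Mrpl or Mrps followed by a number, and 78 genes met this rule, 49 named for the large subunit and 29 for the small subunit, out of 35275 genes listed for cultured cells and 54532 listed for tumors. Another 5 genes with such symbols are not protein coding and were left out. Mrpl33 was not analysed here in cultured cells, which leaves 77 members there. D2A1 and D2.1 are mouse mammary tumor lines of BALB/c origin, both derived from hyperplastic alveolar nodules named D2, and D2A1 is the proliferative line and D2.1 the dormancy-prone one of the pair. Bulk RNA-seq covered 24 libraries, with 3 libraries per line from cells grown in low-glucose DMEM with serum, 4 tumors per line in BALB/c hosts and 5 per line in SCID-beige hosts. The tumors grew in the mammary fat pad of female mice aged 8 to 12 weeks at implantation and were taken at about 500 mm3. BALB/c mice have an intact immune system, whereas SCID-beige mice lack T and B cells and have defective NK cells. All tumors hold host cells beside the implanted line, both lines are unmodified parental populations, and nothing says that the 3 libraries of a cultured line came from separate cultures, so that p-values measure the spread between these libraries, which may be technical.

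The mitochondrial ribosome, or mitoribosome, translates the few proteins that mitochondrial DNA encodes, all of them subunits of the respiratory chain and ATP synthase. Its RNAs are transcribed inside the organelle, but all of its proteins are encoded in the nucleus, made in the cytosol and imported. A part of these proteins descend from bacterial ribosomal proteins and the rest were added in mitochondria, and loss of single members blocks oxidative phosphorylation.

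Library totals ran from 13566949 to 24818234 gene counts, and a floor of 3 counts was 0.121 to 0.221 CPM of a library's own total, before TMM scaling, which covers counting error only. All other CPM values are a library's counts scaled to a common total by the TMM method over all 24 libraries. Across 38 pairs of replicates no library was a copy of another (chi-square per degree of freedom 4.96 to 117). The 5 genes taken as markers of the tumor cells (Krt8, Krt14, Krt18, Vim, Cd44) were detected in every group, at a summed level of 4050 to 11300 CPM in cultured cells and 5290 to 9880 CPM in tumors. In whole tumors this sum cannot be split between tumor cells and host cells. D2.1 tumors from BALB/c mice stood apart by host transcripts, since replicate 1 held 385 CPM of milk protein genes and replicate 4 held 119 CPM of skin keratin and cornification genes, against at most 2.29 and 4.63 CPM in the tumors of the other 3 groups. The 8 T cell markers summed to 64.2 to 171 CPM in D2.1 tumors and 7.57 to 23.3 CPM in D2A1 tumors from BALB/c mice. B cell markers (4 genes) summed to 6.27 to 76.2 CPM in D2.1 and at most 0.768 CPM in D2A1 tumors of BALB/c mice, and to 2.35 to 5.78 and at most 0.551 CPM in SCID-beige mice. Skeletal muscle markers (4 genes) summed to 29.8 to 324 CPM in D2.1 and 5.16 to 54.9 CPM in D2A1 tumors of BALB/c mice, and to 0.73 to 238 and 1.12 to 15.2 CPM in SCID-beige mice. Adipocyte markers (4 genes) summed to 9.97 to 184 and 14.1 to 57.5 CPM in the same BALB/c groups, and to 0.342 to 25.6 and 5.99 to 41.6 CPM in SCID-beige mice. The 4 endothelial markers summed to 71.8 to 118 CPM in D2.1 and at least 189 CPM in D2A1 tumors from BALB/c mice, and to 49.7 to 82.6 and 170 to 245 CPM in SCID-beige mice. The 6 myeloid markers, 1100 to 2390 CPM over all tumors, overlapped between the lines in both hosts. The part of these host transcripts in the results below was not tested, and in whole tumors fewer cells of a type and less RNA per cell cannot be told apart.

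The members differed widely in level within each group. Levels between genes were compared as FPKM, reads scaled for gene length and library total, and only within the table of cultured cells or of tumors, since both tables use their own gene lengths. Without Mrpl53, the mean FPKM of members started at 6.56 in D2A1 cells and at 7.63 in D2.1 cells and differed by 32.6 and 23.9 times between the lowest and the highest member, with medians of 31.0 and 27.7. In tumors the medians were 39.8 and 27.6 FPKM in BALB/c mice and 40.7 and 31.0 FPKM in SCID-beige mice, D2A1 before D2.1. Mrpl52, a large-subunit protein without a bacterial counterpart, was the highest member in all 6 groups, and in tumors its group means ran from 159 ± 37.8 FPKM (SD, n = 4) in BALB/c D2.1 tumors to 236 ± 67.9 FPKM (n = 5) in D2A1 tumors of SCID-beige mice. Mrps21, the counterpart of a bacterial small-subunit protein, ranked at place 2 in every tumor group (144 to 208 FPKM). In cultured D2A1 and D2.1 cells it ranked at places 11 and 8 (77.9 and 71.6 FPKM). Its length was taken as 714 bases in cells and 398 bases in tumors, so that these ranks cannot be compared between culture and tumors. Mrpl28, with a bacterial counterpart, ranked at place 3 of the members in 3 tumor groups and at place 6 in D2A1 tumors of BALB/c mice, with group means from 89.1 to 123 FPKM. In cultured D2A1 and D2.1 cells it ranked at places 6 and 7 with 87.6 and 75.9 FPKM. Mrpl1 and Mrps22, a small-subunit protein found in mitochondria alone, were at the lower end in tumors, with group means of 7.55 to 12.2 and 7.40 to 11.7 FPKM. In D2A1 and D2.1 cells Mrpl1 had 11.7 and 8.08 FPKM and Mrps22 had 13.5 and 10.7 FPKM. Mrpl53 had counts in a single library (D2.1 in SCID-beige mice, replicate 2, at 0.117 CPM), and 88% of its exon bases are shared with the same-strand gene Gm42688, so that its level could not be measured.

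Taken as a share of all counts, the 77 members listed in both tables had a lower mean in D2.1 than in D2A1 in each setting, with overlap between the lines. The share was 0.472%, 0.479% and 0.382% in the 3 libraries of D2A1 cells and 0.396%, 0.345% and 0.345% in those of D2.1 cells. In BALB/c mice it was 0.318%, 0.289%, 0.447% and 0.382% in D2A1 tumors and 0.228%, 0.210%, 0.313% and 0.318% in D2.1 tumors. In SCID-beige mice it was 0.422%, 0.486%, 0.338%, 0.343% and 0.286% in D2A1 tumors and 0.304%, 0.312%, 0.288%, 0.336% and 0.254% in D2.1 tumors. The lines overlapped in all 3 settings, and the range within D2A1 tumors was wider than the distance between the means of the lines. At the same replicate number, D2.1 was below D2A1 in 3 of 3 cases in culture, 4 of 4 in BALB/c and every case in SCID-beige mice. Nothing states that these numbers pair libraries. Among tumors, libraries with a high share of mitoribosomal transcripts tended to have a high share of cytosolic ribosomal proteins. Replicate 2 of D2A1 in SCID-beige mice led both (8.04% of counts on 74 cytosolic genes), and replicate 5 of that group, lowest of its group for the members, was also the lowest D2A1 tumor of that host for the cytosolic genes (4.16%). Their part in the results was not tested. The proteins encoded by mitochondrial DNA went the other way, with 0.761% ± 0.166 (SD, n = 3) of counts in D2A1 cells and 1.06% ± 0.398 (n = 3) in D2.1 cells, 2.0% ± 0.463 and 2.29% ± 0.509 (n = 4 each) in BALB/c tumors, and 1.70% ± 0.268 and 1.96% ± 0.392 (n = 5 each) in SCID-beige tumors. These differences between the lines were within 1 SD of the D2.1 group in each setting.

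**Figure D1:**
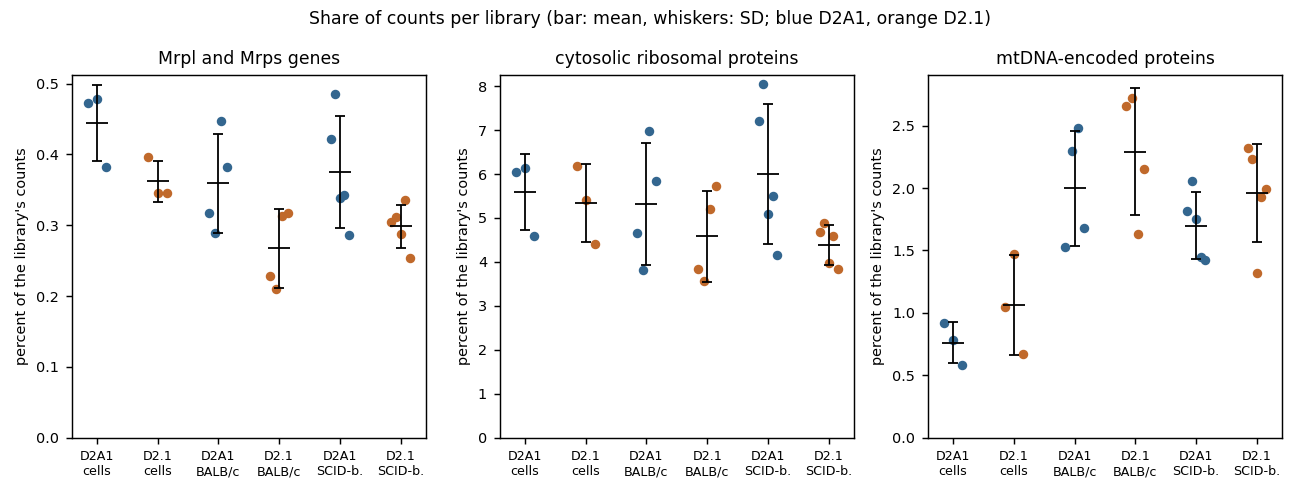
Percent of each library's counts on the members, on cytosolic ribosomal proteins and on proteins encoded by mitochondrial DNA, for the 6 groups. Each point is a library, bars are means and whiskers SD. The members' means run from 0.267% in BALB/c D2.1 tumors to 0.444% in D2A1 cells, and D2A1 and D2.1 libraries overlap in each setting.

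The lines were then compared gene by gene in edgeR (quasi-likelihood F-test), with p-values adjusted after Benjamini and Hochberg over all genes tested and a threshold of 0.05. In cultured cells 26 of 76 members tested were called, 21 lower and 5 higher in D2.1, whereas 44.9% of all genes tested were called, 20.7% lower and 24.2% higher. The members' share of calls (34.2%) was thus below that of all genes, and 27.6% were lower against 20.7%. In BALB/c tumors 17 of 77 members were lower and 0 were higher (22.1% lower, against 15.8% of all genes lower and 16.8% higher, 32.6% in all). In SCID-beige tumors 13 of 77 were lower and 0 were higher (16.9% lower, against 14.8% of all genes lower and 17.2% higher, 32.1% in all). DESeq2 also called 0 higher members in either host, beside 19 and 14 lower. At an unadjusted p under 0.05 33, 31 and 24 members stood in culture, BALB/c and SCID-beige tumors (43.4%, 40.3% and 31.2%, against 52.3%, 42.8% and 41.9% of all genes). The median log2 fold change of the members was -0.20 in culture, -0.44 in BALB/c and -0.32 in SCID-beige tumors, where all genes tested had -0.02, -0.02 and 0.02. Of the members, 54 of 76, 64 of 77 and 66 of 77 were below 0 (71.1%, 83.1% and 85.7%, against 51.1%, 51.1% and 49.0% of all genes). Most of these differences were small, with quartiles from -0.49 to 0.09 in culture, -0.62 to -0.13 in BALB/c and -0.51 to -0.15 in SCID-beige tumors.

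The number of calls depended on single libraries and on whether replicate numbers were taken as a block. The members' median ranged from -0.31 to -0.11 in culture, -0.51 to -0.31 in BALB/c and -0.40 to -0.21 in SCID-beige tumors with one library left out. Each with one library left out, the calls in culture ranged from 11 to 33, and fell to 11 and 13 without D2A1 replicate 1 or 2 and to 16 and 13 without D2.1 replicate 1 or 2. In BALB/c tumors they ranged from 7 to 21, and fell to 7 and 10 without D2A1 replicate 3 or 4 and to 8 without D2.1 replicate 1. Without the D2.1 replicates 1 and 4 that carried milk and skin transcripts, 6 members were called in BALB/c tumors (21.3% of all genes), all of them among the 17. In SCID-beige tumors the range was 9 to 21, the latter without D2A1 replicate 5. Calls among all genes change in such fits too, as in BALB/c tumors with 21.3% without D2.1 replicates 1 and 4 against 32.6% with them. These counts are thus no trait of the members alone. With the replicate number as a block, 43 members were called in culture (31 lower, 12 higher, against 60.4% of all genes). In BALB/c tumors this gave 43 as well (42 lower, 1 higher, against 47.6%). Nothing states that these numbers pair libraries. By their deviations, 4 of 6 libraries in culture and 3 of 8 in BALB/c mice went best with their own number. The block kept 25 of the 26 calls in culture and all 17 in BALB/c. With an offset for gene length, 4 members were called higher in SCID-beige tumors beside 15 lower, namely Mrpl18, Mrpl20, Mrps6 and Mrps11.

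**Figure D2:**
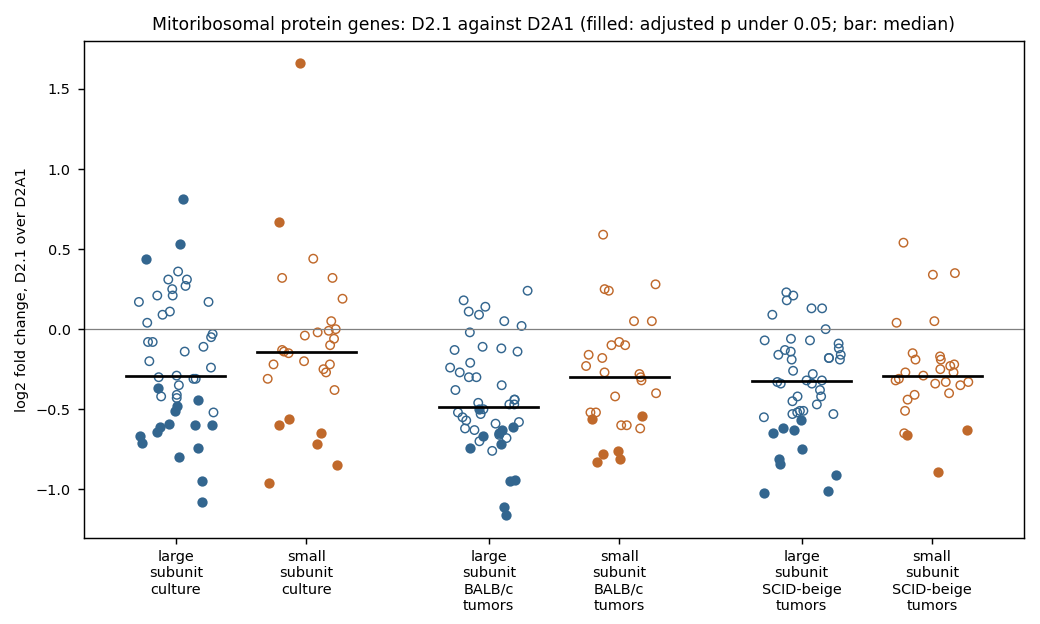
Log2 fold change of D2.1 over D2A1 for every member tested, by subunit and setting. Filled points have an adjusted p under 0.05 and black bars are medians. The medians of the large subunit are -0.29, -0.48 and -0.33 and those of the small subunit -0.14, -0.30 and -0.29, and the filled points above 0 are the 5 members higher in culture.

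The differences were spread over both subunits. Of large-subunit members, 15 of 47 were lower and 3 higher in culture (Mrpl17, Mrpl42, Mrpl54), 11 of 48 lower in BALB/c and 10 of 48 lower in SCID-beige tumors. Of the 29 small-subunit members, 6 were lower and 2 higher in culture (Mrps6, Mrps11), 6 lower in BALB/c and 3 lower in SCID-beige tumors. The medians were -0.29, -0.48 and -0.33 for the large and -0.14, -0.30 and -0.29 for the small subunit, and no test of the difference between subunits was made. Moving Mrps18a and Mrps30, which sit in the large subunit in spite of their names, changed none of these counts of calls and moved no median by more than 0.05. Members with a bacterial counterpart (13, 10 and 9 lower of 47, 48 and 48 tested) and members found in mitochondria alone (8, 7 and 4 lower of 29 tested) had medians of -0.24 and -0.14 in culture, -0.45 and -0.38 in BALB/c, and -0.30 and -0.33 in SCID-beige tumors. Mrps18a, Mrps18b and Mrps18c, a trio that descends from one bacterial protein and occupies different sites of the mitoribosome, passed the test in none of the 3 comparisons (log2 fold changes of -0.40 to -0.06). Mrps36, now known as a subunit of the alpha-ketoglutarate dehydrogenase complex rather than of the ribosome, had -0.04 ± 0.19 (standard error) in culture, -0.60 ± 0.37 in BALB/c and -0.40 ± 0.22 in SCID-beige tumors and did not pass either (adjusted p = 0.88, 0.25 and 0.18, edgeR).

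Lower transcript levels in D2.1 were called in all 3 comparisons for 8 of the 76 members tested in each (6.23% of all genes tested in each were lower in all 3), and no member was higher in all 3. The 8 were Mrpl15, Mrpl22, Mrpl34, Mrpl44 and Mrpl57 of the large and Mrps9, Mrps28 and Mrps31 of the small subunit. Below 0 in all 3 were 49 members, and 5 were above 0 (Mrpl20, Mrpl42, Mrps6, Mrps11, Mrps34), while 31.6% and 28.8% of all genes had these patterns. Other genes overlap 77.8% of the exon bases of Mrps34, so that its value is uncertain. Of the 76 members, 43 passed the test in no comparison, as did 38.5% of all genes tested in all 3. No member was called in opposite directions in culture and in a tumor comparison. DESeq2, DESeq2's size factors in edgeR, a filter of at least 10 counts and an added log2 threshold of 0.5 gave the same 8 names. Without a filter there were also 8, with Mrpl35 in place of Mrps31, and an offset for gene length gave 10, the same 8 with Mrpl21 and Mrps2. An offset for GC content also gave 8, but without Mrpl15, Mrpl57 and Mrps31 and with Mrpl4, Mrpl21 and Mrpl38. With the replicate block there were 13, which lacked Mrpl57.

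Mrpl15 (ENSMUSG00000033845), the counterpart of a bacterial protein of the large subunit, lies on chromosome 1 of GRCm38 at 4773206 to 4785739, minus strand. It was at 122, 129 and 86.9 CPM in D2A1 cells and at 56.7, 55.8 and 44.7 CPM in D2.1 cells. In BALB/c mice it was at 59.0, 57.3, 93.5 and 74.0 CPM in D2A1 and at 27.9, 27.9, 39.6 and 51.0 CPM in D2.1 tumors. In SCID-beige mice it was at 83.3, 124, 67.7, 59.0 and 56.1 CPM in D2A1 and at 39.7, 37.0, 35.6, 47 and 35.1 CPM in D2.1 tumors. Every D2.1 library was below every D2A1 library in all 3 settings. The log2 fold changes were -1.08 ± 0.19 (standard error, adjusted p = 0.0017), -0.95 ± 0.24 (adjusted p = 0.013) and -1.01 ± 0.21 (adjusted p = 0.0028, all edgeR), and the calls were kept with any one library left out.

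Mrps9 (ENSMUSG00000060679, chromosome 1, 42851233 to 42905683, plus strand), the counterpart of a bacterial small-subunit protein, was another of the 8. It was at 64.8, 66.8 and 62.2 CPM in D2A1 cells and at 35.3, 32.7 and 29.3 CPM in D2.1 cells. Among BALB/c tumors, those of D2A1 had 45.4, 42.3, 60.6 and 53.1 CPM and those of D2.1 24.4, 28.5, 34.8 and 28.9 CPM. Among SCID-beige tumors, those of D2A1 had 53.5, 65.3, 47, 47.7 and 40.7 CPM and those of D2.1 33.9, 33.1, 30.4, 36 and 27.5 CPM. The lines did not overlap in any setting, with log2 fold changes of -0.96 ± 0.13 (adjusted p = 4.3e-04), -0.78 ± 0.18 (adjusted p = 0.0069) and -0.66 ± 0.16 (adjusted p = 0.0063, all edgeR). Of the 8, these calls and those of Mrpl15 were the ones kept in all 3 comparisons with any one library left out. Every D2.1 library was below every D2A1 library for 26 of 76 members in culture, 19 of 77 in BALB/c and 7 of 77 in SCID-beige tumors, whereas 28.7%, 17.3% and 11.1% of all genes showed this.

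Mrpl34 (ENSMUSG00000034880, chromosome 8, 71464959 to 71465747, plus strand), a very small protein of the large subunit with a bacterial counterpart, had the largest fall in both hosts. It was at 71.0, 74.1 and 55.4 CPM in D2A1 cells and at 48.8, 37.6 and 51.6 CPM in D2.1 cells. In BALB/c mice it was at 43.6, 40.5, 71.3 and 48.5 CPM in D2A1 tumors and at 19.8, 13.9, 29.9 and 27.4 CPM in D2.1 tumors. In SCID-beige mice D2A1 tumors had 61.8, 85.1, 43.8, 59.1 and 37.0 CPM and D2.1 tumors 29.9, 25.9, 25.8, 37.3 and 23.1 CPM, which overlap by D2A1 replicate 5 and D2.1 replicate 4. The log2 fold changes were -0.51 ± 0.17 in culture (adjusted p = 0.040), -1.16 ± 0.27 in BALB/c (adjusted p = 0.0082) and -1.02 ± 0.23 in SCID-beige tumors (adjusted p = 0.0036, all edgeR). The call in culture was lost without D2A1 replicate 1 or 2 or D2.1 replicate 1 or 2 (adjusted p = 0.071 to 0.14). The larger fall in tumors was not called as a difference from culture (-0.62 ± 0.37 for BALB/c and -0.49 ± 0.33 for SCID-beige tumors, adjusted p = 0.32 and 0.41).

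Mrpl22 (ENSMUSG00000020514, chromosome 11, 58171661 to 58179565, plus strand), the counterpart of a bacterial protein that lines the exit tunnel for the nascent chain, was at 69.1, 70.0 and 51.4 CPM in D2A1 cells and at 49.8, 37.9 and 34.7 CPM in D2.1 cells. It was at 30.8, 32.4, 53.1 and 43.4 CPM in D2A1 and at 16.3, 13.8, 22.5 and 21 CPM in BALB/c D2.1 tumors. In SCID-beige mice D2A1 tumors had 52.2, 59.7, 32.3, 29.6 and 21.4 CPM and D2.1 tumors 21.2, 24, 21.3, 23.2 and 14.5 CPM. The lines were apart in culture and in BALB/c mice and overlapped in SCID-beige mice by D2A1 replicate 5. The log2 fold changes were -0.61 ± 0.19 (adjusted p = 0.030), -1.11 ± 0.24 (adjusted p = 0.0050) and -0.91 ± 0.27 (adjusted p = 0.019, all edgeR), the first of which was lost without D2A1 replicate 1 or 2 or D2.1 replicate 2 or 3 (adjusted p = 0.073 to 0.11).

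The remaining 4 had smaller or less even differences. Mrpl44 (ENSMUSG00000026248, chromosome 1, 79776018 to 79781445), a large-subunit protein with a ribonuclease III-like fold whose loss causes a cardiomyopathy, had 29.3 to 36.5 CPM in D2A1 cells and 19.2 to 20 CPM in D2.1 cells. The lines did not overlap for Mrpl44 in either host, and 7.66% of its exon bases overlap Wdfy1 on the opposite strand. Its log2 fold changes were -0.74 ± 0.14, -0.74 ± 0.24 and -0.62 ± 0.18 (adjusted p = 0.0031, 0.035 and 0.019, edgeR). The BALB/c call was lost without D2A1 replicate 3 or 4 or D2.1 replicate 1, 2 or 3 (adjusted p = 0.064 to 0.095). Mrps31 (ENSMUSG00000031533, chromosome 8, 22411361 to 22429665), a small-subunit protein found in mitochondria alone, fell by 0.72 ± 0.15, 0.81 ± 0.20 and 0.63 ± 0.22 on the log2 scale (adjusted p = 0.0048, 0.011 and 0.042, edgeR). Its lines overlapped in SCID-beige mice (12.6 to 23.0 CPM in D2.1 and 21.6 to 39.8 CPM in D2A1 tumors), and that call was lost without D2A1 replicate 1 or 2 or D2.1 replicate 1, 3 or 5 (adjusted p = 0.059 to 0.11). Mrpl57 (ENSMUSG00000021967, chromosome 14, 57826234 to 57829296), a short protein of the large subunit, ranged from 15.2 to 37.0 CPM in D2.1 cells and from 42.2 to 56.6 CPM in D2A1 cells. It fell by 0.95 ± 0.29, 0.94 ± 0.28 and 0.65 ± 0.21 on the log2 scale (adjusted p = 0.026, 0.025 and 0.032, edgeR), but with the replicate block its adjusted p in culture was 0.12. Calls for Mrpl57 were lost in culture without replicate 1 or 2 of either line, in BALB/c without D2A1 replicate 3 or 4 or D2.1 replicate 1, and in SCID-beige mice without D2A1 replicate 1 or 2 or D2.1 replicate 2, 3 or 5 (adjusted p = 0.051 to 0.077). Mrps28 (ENSMUSG00000040269, chromosome 3, 8802146 to 8923918) was nearest to the threshold, with log2 fold changes of -0.56 ± 0.20, -0.83 ± 0.28 and -0.89 ± 0.27 (adjusted p = 0.045, 0.043 and 0.020, edgeR). Its call in culture was lost without any one library but D2A1 replicate 3, its call in BALB/c without any one but D2A1 replicate 2 and D2.1 replicate 4, and its call in SCID-beige mice without D2.1 replicate 5 (adjusted p = 0.052 to 0.17).

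**Figure D3:**
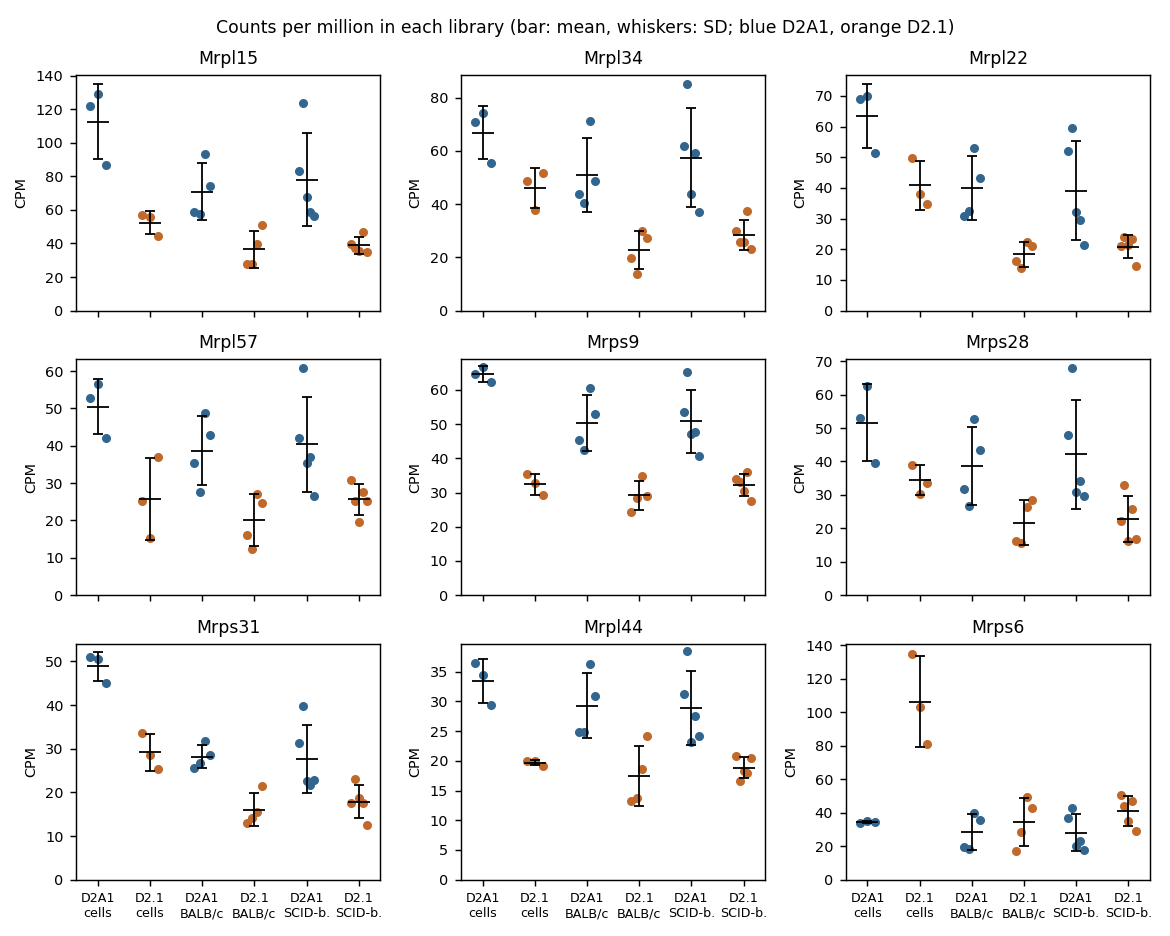
CPM of the 8 members lower in D2.1 in all 3 comparisons and of Mrps6, in each library of the 6 groups, with means and SD. Mrpl15, Mrps9 and Mrpl44 show no overlap of the lines in any setting, while Mrps6 is higher in the 3 libraries of D2.1 cells (80.8 to 135 CPM) than in D2A1 cells (33.8 to 34.8 CPM) and overlaps in tumors.

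The start regions of these genes were read from RefSeq (GRCm38.p6), from 250 bases before to 50 bases after the annotated start, for 69 of the 78 members. The letters CCGGAAG, a core of the sites of ETS and GABP factors, stood on either strand in 26 of the 69 (37.7%) and in 13.2% of 16453 other protein-coding genes. The letters AAGATGG, a core of YY1 sites, stood in 13 members (18.8%) and in 7.21% of the others, and CATGCGC, a core of NRF1 sites, in 8 members (11.6%) and in 5.54%. CACGTG, the E-box that Myc and related factors bind, stood in 5 members (7.25%) and in 9.18% of the others, and in 0 of the 6 members lower in all 3 comparisons that have an entry. Of the same 6, 3 hold CCGGAAG, at 53 bases before the start in Mrpl22, 37 before it in Mrpl34 and at base 5 of the transcript in Mrpl57. Members that passed the test in no comparison held CCGGAAG in 16 of 40 and those lower in at least 1 in 8 of 24. These 3 starts are shown because their genes fell in all 3 comparisons and hold these letters, and that of Mrps6 (chr16:92058086-92058385) because the window also holds the annotated start of a second gene described next. The others lie at chr11:58171414-58171713 (Mrpl22), chr8:71464676-71464975 (Mrpl34) and chr14:57825989-57826288 (Mrpl57), all on the plus strand and 5′ to 3′, with capitals for CCGGAAG and, in Mrpl22, also for CATGCGC read on the minus strand.
Mrpl22: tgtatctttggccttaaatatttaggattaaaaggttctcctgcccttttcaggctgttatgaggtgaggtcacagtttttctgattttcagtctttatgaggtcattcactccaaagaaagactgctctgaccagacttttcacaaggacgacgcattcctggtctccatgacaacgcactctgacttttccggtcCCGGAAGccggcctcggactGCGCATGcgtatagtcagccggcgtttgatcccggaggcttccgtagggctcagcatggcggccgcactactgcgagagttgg
Mrpl34: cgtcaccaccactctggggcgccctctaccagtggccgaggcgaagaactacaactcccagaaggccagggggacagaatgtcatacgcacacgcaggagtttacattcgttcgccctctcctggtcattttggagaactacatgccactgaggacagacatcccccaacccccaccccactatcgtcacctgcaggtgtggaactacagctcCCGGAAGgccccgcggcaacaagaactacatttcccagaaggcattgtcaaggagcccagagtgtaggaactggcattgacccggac
Mrpl57: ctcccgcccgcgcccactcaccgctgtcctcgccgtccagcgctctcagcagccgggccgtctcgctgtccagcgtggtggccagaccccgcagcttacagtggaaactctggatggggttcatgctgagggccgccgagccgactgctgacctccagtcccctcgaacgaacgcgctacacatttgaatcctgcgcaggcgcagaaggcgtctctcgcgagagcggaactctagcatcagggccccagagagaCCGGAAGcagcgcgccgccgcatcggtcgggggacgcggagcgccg
Mrps6: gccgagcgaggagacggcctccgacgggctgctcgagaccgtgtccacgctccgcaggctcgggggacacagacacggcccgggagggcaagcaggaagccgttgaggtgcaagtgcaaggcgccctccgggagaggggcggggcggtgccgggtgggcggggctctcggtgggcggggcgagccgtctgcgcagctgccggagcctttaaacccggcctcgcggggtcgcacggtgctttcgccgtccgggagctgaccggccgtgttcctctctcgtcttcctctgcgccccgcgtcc

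Higher transcript levels in D2.1 were called for 5 members, all in culture. Mrps6 (ENSMUSG00000039680, chromosome 16, 92058270 to 92112227, plus strand), the counterpart of a bacterial small-subunit protein, stood far above the rest. It was at 33.8, 34.8 and 34.5 CPM in D2A1 cells and at 135, 103 and 80.8 CPM in D2.1 cells, without overlap. Its log2 fold change was 1.66 ± 0.19 (adjusted p = 1.8e-04, edgeR), and the call was kept with any one library left out. In tumors the lines overlapped, with 18.6 to 39.7 and 17.1 to 49.3 CPM in D2A1 and D2.1 tumors of BALB/c mice (adjusted p = 0.59) and 17.5 to 42.5 and 29.3 to 50.5 CPM in SCID-beige mice (adjusted p = 0.12). The smaller difference in tumors was not called against culture (-1.37 ± 0.47 and -1.10 ± 0.37, adjusted p = 0.069 and 0.065). Mrps6 starts just upstream of Slc5a3, the sodium and myo-inositol cotransporter, on the same strand, and both share 159 exon bases of the 1533 of Mrps6. Slc5a3 was also higher in D2.1, by 1.55 ± 0.19 in culture, 1.64 ± 0.52 in BALB/c and 2.11 ± 0.30 in SCID-beige tumors (adjusted p = 2.3e-04, 0.033 and 1.3e-04, edgeR). Mrps6 also shares 305 exon bases with Gm49711. Overlaps with all genes together cover 19.9% of its exon bases, so that the 159 and the 305 do not add up. How the authors' counting assigned shared reads is not given in the sources used here, so that the value of Mrps6 is uncertain. Slc5a3 and Gm49711 were chosen after the value of Mrps6 was seen.

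The other 4 rose less. Mrpl54, a large-subunit protein found in mitochondria alone, was at 40.4, 43.0 and 23.3 CPM in D2A1 cells and 78.0, 58.4 and 46.9 CPM in D2.1 cells (log2 fold change 0.81 ± 0.27, adjusted p = 0.039, edgeR). Mrps11, the counterpart of a bacterial protein of the small subunit, was at 17.6, 18.5 and 11.3 CPM in D2A1 and at 28.6, 23.8 and 21.5 CPM in D2.1 cells (0.67 ± 0.22, adjusted p = 0.038, edgeR). The lines did not overlap for either, but both calls were lost without D2A1 replicate 1 or 3 or D2.1 replicate 1 or 2 (adjusted p = 0.052 to 0.14). Mrps11 shares 7.97% of its exon bases with Mrpl46 on the opposite strand. Mrpl17, with a bacterial counterpart, had 0.53 ± 0.15 and Mrpl42, found in mitochondria alone, had 0.44 ± 0.13 (adjusted p = 0.021 and 0.024, edgeR). In tumors none of the 4 was called, and Mrpl17 had -0.44 ± 0.25 and -0.12 ± 0.21 in BALB/c and SCID-beige mice.

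Members were set beside the other genes of their chromosome. All 5 members on chromosome 1 (Mrpl15, Mrpl30, Mrps9, Mrpl44, Mrps14) were lower in D2.1 cells, and the 642 other genes tested there had a median log2 fold change of -0.35. Both members on chromosome 10 (Mrpl42, Mrpl54) were higher, and the 555 other genes there had a median of 0.52. Over all chromosomes the medians of the other genes ran from -0.55 (chromosome 12) to 0.61 (chromosome 15) in culture, from -0.36 (chromosome 12) to 0.42 (chromosome 10) in BALB/c and from -0.25 (chromosome 12) to 0.50 (chromosome 10) in SCID-beige tumors. With the median of its chromosome subtracted from each member, the median over members was -0.18 in culture, -0.35 in BALB/c and -0.33 in SCID-beige tumors, and 53 of 76, 70 of 77 and 71 of 77 members were below their chromosome. On chromosome 1, 3 of the 5 members were lower in each host (the other genes had -0.19 and -0.11). Chromosome 16 held a member of each direction in culture, with Mrps6 higher and Mrpl39 lower (-0.37). Within 5 Mb, Mrps28 lay among 17 genes with a median of -0.73 in culture, and its own value of -0.56 was above it. Mrps6 (1.66) lay among 50 genes with a median of -0.11. The part of chromosome position in the results was not tested.

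Of the members, 23 have a protein-coding neighbor that starts within 1000 bases on the opposite strand and runs the other way. Mrps5 starts 128 bases from Zfp661, a zinc finger gene, and both were lower in D2.1 cells (-0.85 and -0.91, adjusted p = 0.0016 and 0.027, edgeR). Mrpl30 starts 66 bases from Mitd1, and both were lower there (-0.60 and -0.69, adjusted p = 0.042 and 0.0059). Mrpl54 starts 26 bases from Apba3, and both were higher (0.81 and 0.72, adjusted p = 0.039 and 0.0017). Other pairs differed, since Mrpl44 and Mrpl50 were lower while Wdfy1 (-0.21) and Zfp189 (-0.15) did not pass the test (adjusted p = 0.28 and 0.67). Mrpl21, Mrpl36, Mrpl41 and Mrpl57 were the remaining members with such a neighbor that were called in culture. Their neighbors did not pass there either, where 44.9% of all genes tested were called. These pairs were chosen after their values were seen.

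**Figure D4:**
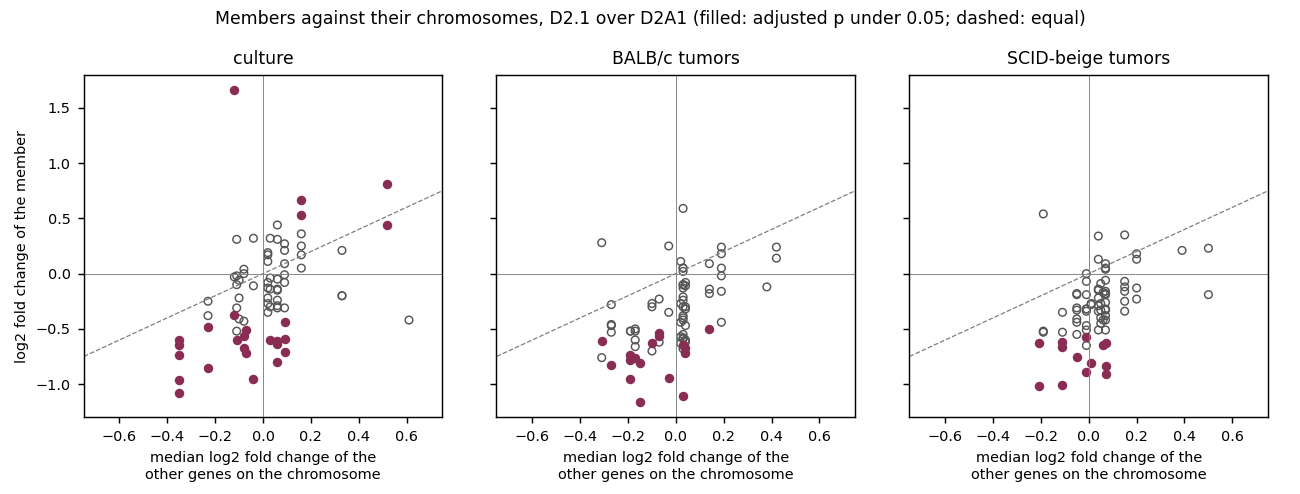
Log2 fold change of each member (y axis) against the median log2 fold change of the other genes tested on its chromosome (x axis), D2.1 over D2A1, in the 3 settings. Filled points have an adjusted p under 0.05 and the dashed line marks equal values. Most points lie below the line (53 of 76, 70 of 77 and 71 of 77), and the filled points at -0.35 in culture are the 5 members on chromosome 1.

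The pairs of hosts were compared to ask whether adaptive immunity moved these genes. With edgeR, 0 of 77 members were called between BALB/c and SCID-beige mice in either line, where 0.891% and 1.17% of all genes were called for D2.1 and D2A1 tumors (0.871% and 0.906% higher in BALB/c, 0.0201% and 0.261% lower), and DESeq2 also called 0. At an unadjusted p under 0.05, 1 member was below it in D2.1 (Mrpl50) and 0 in D2A1 tumors, against 9.97% and 10.1% of all genes. The medians were -0.15 in D2.1 and -0.09 in D2A1 tumors (all genes -0.01 and 0.01), with 67 and 58 of 77 members below 0 (87.0% and 75.3%, against 51.2% and 48.2% of all genes) and extremes of -0.51 and 0.21 in D2.1 and -0.36 and 0.19 in D2A1 tumors. With one library left out the medians ranged from -0.27 to -0.06 in D2.1 tumors, the ends without BALB/c replicates 4 and 2. In D2A1 tumors they ranged from -0.27 to 0.03, the ends without BALB/c replicate 3 and SCID-beige replicate 2, so that the direction there rested on single libraries. At 4 tumors against 5, the standard error of a member such as Mrpl15 was 0.21 in D2.1 and 0.25 in D2A1 tumors. A call needs a difference well above its standard error, and even the extremes of -0.51 and -0.36 were not called. Host differences of this size could thus be missed. The comparison of the line difference between the hosts called 0 of 77 members by edgeR and by DESeq2 (0.0187% of all genes by edgeR), with 1 at an unadjusted p under 0.05 (8.45% of all genes), again Mrpl50.

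Whether the difference between the lines changed from culture to tumors was tested as an interaction over both tables. For SCID-beige tumors 1 of 76 members was called (1 higher and 0 lower, 1.32%, against 12.8% of all genes, 4.62% higher and 8.18% lower), and for BALB/c tumors 2 (0 higher and 2 lower, 2.63%, against 14.4%, 5.48% higher and 8.9% lower). The called one was Mrpl50 (ENSMUSG00000044018, chromosome 4), a large-subunit protein found in mitochondria alone. It was at 45.6, 49.4 and 47.8 CPM in D2A1 cells and 27.7, 26.3 and 31.4 CPM in D2.1 cells. In SCID-beige mice it was at 26.3, 28.6, 34.4, 32.6 and 30.5 CPM in D2A1 and at 36.1, 28.4, 39.1, 34 and 29.0 CPM in D2.1 tumors, which overlap. Among BALB/c tumors, those of D2A1 had 33, 30.2, 32.2 and 34.7 CPM and those of D2.1 20.1, 25.5, 24.5 and 21.7 CPM, without overlap. Mrpl50 thus had log2 fold changes of -0.71 ± 0.13 in culture, 0.13 ± 0.16 in SCID-beige and -0.50 ± 0.16 in BALB/c tumors (adjusted p = 0.0020, 0.56 and 0.033, edgeR). The interaction of 0.85 ± 0.22 (adjusted p = 0.013, edgeR) was kept with any one library left out but not with an offset for GC content (0.70, adjusted p = 0.075). The BALB/c call was lost without D2A1 replicate 1, 3 or 4 or D2.1 replicate 1, 3 or 4 (adjusted p = 0.054 to 0.091).

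The 2 for BALB/c tumors were Mrpl3 and Mrps27. Mrpl3 (ENSMUSG00000032563, chromosome 9), the counterpart of a bacterial protein near the peptidyl transferase center, was at 86.1, 87.2 and 70.4 CPM in D2A1 cells and at 97.6, 90.2 and 88.8 CPM in D2.1 cells. In BALB/c mice it was at 51.0, 55.7, 65.3 and 54.6 CPM in D2A1 and at 25.8, 35.3, 38.3 and 42.5 CPM in D2.1 tumors. Its D2.1 libraries were all above those of D2A1 in culture (0.21 ± 0.13, adjusted p = 0.23) and all below in BALB/c tumors (-0.67 ± 0.18, adjusted p = 0.017, edgeR), an interaction of -0.86 ± 0.24 (adjusted p = 0.024, edgeR) that was lost without D2A1 cells replicate 3 or D2.1 cells replicate 1 (adjusted p = 0.067 to 0.070). Mrps27 (ENSMUSG00000041632, chromosome 13), a small-subunit protein of the pentatricopeptide repeat family, was at 36.7, 35.4 and 26.8 CPM in D2A1 cells and at 44.7, 45.8 and 30.5 CPM in D2.1 cells. In BALB/c mice it was at 27.3, 29.1, 48.0 and 33.9 CPM in D2A1 and at 15.2, 20.5, 22.2 and 23.5 CPM in D2.1 tumors. The lines overlapped in culture (0.32 ± 0.20, adjusted p = 0.24) and were apart in BALB/c tumors (-0.76 ± 0.22, adjusted p = 0.026, edgeR), a call lost without D2A1 replicate 3 or D2.1 replicate 1 (adjusted p = 0.059 and 0.071). Its interaction of -1.06 ± 0.33 (adjusted p = 0.042, edgeR) was lost without any one of 10 of the 14 libraries, namely every cultured library but D2.1 replicate 3, D2A1 tumors 3 and 4 and D2.1 tumors 1, 2 and 3 (adjusted p = 0.053 to 0.12), and with DESeq2's size factors (0.058). A share of 24.2% of the exon bases of Mrps27 overlaps 6430562O15Rik on the opposite strand. Leaving out one library at a time gave 0 to 4 calls for BALB/c tumors: 0 without D2A1 cells replicate 3 or D2.1 cells replicate 1, 4 without D2A1 tumor 2, and 1 without D2A1 cells replicate 1 or 2, D2.1 cells replicate 2, D2A1 tumor 3 or 4 or D2.1 tumor 1 or 2. For SCID-beige tumors it gave up to 2, without D2.1 cells replicate 3 or D2A1 tumor 2, 3 or 5. Without D2.1 tumors 1 and 4 together, 1 of the 2 BALB/c calls remained. The median interaction over members was -0.13 for SCID-beige and -0.15 for BALB/c tumors (all genes -0.02 and -0.09), and with one library left out it ranged from -0.22 to 0.00 and from -0.25 to -0.01.

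The other steps of mitochondrial gene expression were followed with gene lists drawn up by function, beside all genes tested, of which 20.7%, 15.8% and 14.8% were lower and 24.2%, 16.8% and 17.2% higher in culture, BALB/c and SCID-beige tumors. The 17 mitochondrial tRNA synthetases, which load amino acids onto tRNAs inside the organelle, were lower in D2.1 for 10 genes in culture, 9 in BALB/c and 8 in SCID-beige tumors (58.8%, 52.9% and 47.1%), with 0 higher and medians of -0.58, -0.65 and -0.39. In culture Mars2, for methionine, was at 59.3 ± 2.68 CPM (SD, n = 3) in D2A1 and 18.7 ± 5.82 CPM in D2.1 cells (log2 fold change -1.64 ± 0.21, adjusted p = 2.9e-04, edgeR). In BALB/c tumors Rars2, for arginine, was at 69.4 ± 16.2 CPM (n = 4) in D2A1 and 15.8 ± 2.39 CPM in D2.1 (-2.13 ± 0.20, adjusted p = 3.5e-05, edgeR), and Nars2, for asparagine, had -1.88 ± 0.26 (adjusted p = 3.6e-04). Both led in SCID-beige tumors as well (-1.59 ± 0.19 and -1.42 ± 0.28, adjusted p = 2.9e-05 and 0.0014, edgeR).

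Of 26 genes for mitoribosome assembly and ribosomal RNA modification, 10 were lower and 2 higher in culture, 5 lower and 1 higher in BALB/c, and 5 lower and 0 higher in SCID-beige tumors (medians -0.42, -0.20 and -0.26). The lower share was 38.5% in culture, and 19.2% in both hosts was near that of all genes. Fastkd2, an RNA-binding protein of mitochondrial RNA granules, was at 73.0 ± 5.23 CPM in D2A1 and 27.6 ± 5.01 CPM in D2.1 cells (-1.37 ± 0.17, adjusted p = 2.4e-04, edgeR) and fell in BALB/c tumors too (-0.91 ± 0.21, adjusted p = 0.0073). The GTPase Mtg1 fell in the same comparisons (-1.19 ± 0.19 and -0.87 ± 0.25, adjusted p = 0.0011 and 0.020). Nsun4, a methyltransferase of the small ribosomal RNA that also acts in assembly, rose in culture from 9.90 ± 0.627 to 27 ± 3.40 CPM (1.48 ± 0.16, adjusted p = 1.4e-04, edgeR), and the endoribonuclease Ybey rose in culture and BALB/c tumors (1.01 ± 0.27 and 1.17 ± 0.33, adjusted p = 0.014 and 0.021). In SCID-beige tumors the largest falls were those of Mpv17l2 and of the pseudouridine synthase Rpusd4 (-0.89 ± 0.26 and -0.69 ± 0.16, adjusted p = 0.019 and 0.0040, edgeR).

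Of 15 translation factors and related genes, 6 were lower and 1 higher in culture, 3 lower in BALB/c and 2 lower in SCID-beige tumors, the last (13.3%) near that of all genes. The elongation factor Gfm1 fell in all 3, from 236 ± 4.49 to 118 ± 3.09 CPM in culture (-0.97 ± 0.11, adjusted p = 1.4e-04), from 92.2 ± 5.84 to 39.1 ± 2.08 CPM in BALB/c (-1.23 ± 0.13, adjusted p = 7.9e-05) and from 79.5 ± 10.5 to 55.4 ± 10.4 CPM in SCID-beige tumors (-0.52 ± 0.16, adjusted p = 0.027, all edgeR). Guf1, a GTPase of the elongation cycle, had -1.11 ± 0.13 in culture, the release factor Mtrf1l rose there (0.95 ± 0.18), the RNA stability factor Lrpprc fell in BALB/c (-0.77 ± 0.17) and the insertase Oxa1l in SCID-beige tumors (-0.57 ± 0.17, adjusted p = 2.1e-04, 0.0028, 0.0067 and 0.019, edgeR). Of 5 mitoribosomal proteins under other symbols, 0 passed in culture. Dap3, a GTP-binding small-subunit protein, was at 111 ± 17.6 and 70.2 ± 6.66 CPM in BALB/c (-0.65 ± 0.15, adjusted p = 0.0084) and fell in SCID-beige tumors too (-0.55 ± 0.16, adjusted p = 0.017, edgeR). Ptcd3 fell in BALB/c tumors (-0.76 ± 0.20, adjusted p = 0.016), where Gadd45gip1, a large-subunit protein, rose (0.74 ± 0.22, adjusted p = 0.029).

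Transcripts made inside the organelle had positive medians. Of the 12 proteins encoded by mitochondrial DNA tested in culture, 4 were higher and 0 lower in D2.1, with a median of 0.66, and of 13 in tumors 0 were called in BALB/c and 1 was higher in SCID-beige mice (medians 0.16 and 0.29). Cytochrome b (mt-Cytb) was at 1350 ± 301 CPM in D2A1 and 3160 ± 1310 CPM in D2.1 cells (1.26 ± 0.33, adjusted p = 0.013, edgeR), and mt-Nd5, a subunit of complex I, rose in SCID-beige tumors from 469 ± 58.9 to 867 ± 261 CPM (0.89 ± 0.20, adjusted p = 0.0041). Of 8 genes for mitochondrial transcription and DNA maintenance, 2 were higher and 3 lower in culture. Their medians were -0.43 in culture, -0.23 in BALB/c and -0.02 in SCID-beige tumors. In culture Polrmt, the RNA polymerase, rose by 0.42 ± 0.12 (adjusted p = 0.023, edgeR). Tfam, which packages mitochondrial DNA, rose by 0.37 ± 0.13, at the threshold (adjusted p = 0.05). Polg2 and Twnk fell there (-0.68 ± 0.24 and -0.58 ± 0.14, adjusted p = 0.043 and 0.0085, edgeR). Ssbp1, the single-strand binding protein, fell in both hosts (-0.96 ± 0.23 and -0.67 ± 0.18, adjusted p = 0.0097 and 0.010, edgeR), whereas Tfam was higher in SCID-beige tumors (0.46 ± 0.16, adjusted p = 0.047). The 74 cytosolic ribosomal proteins had medians of 0.04 in culture, -0.13 in BALB/c and -0.37 in SCID-beige tumors, with 4 higher and 0 lower, 0 higher and 1 lower, and 0 higher and 17 lower (23.0%). The members had -0.20, -0.44 and -0.32 in the same comparisons.

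**Figure D5:**
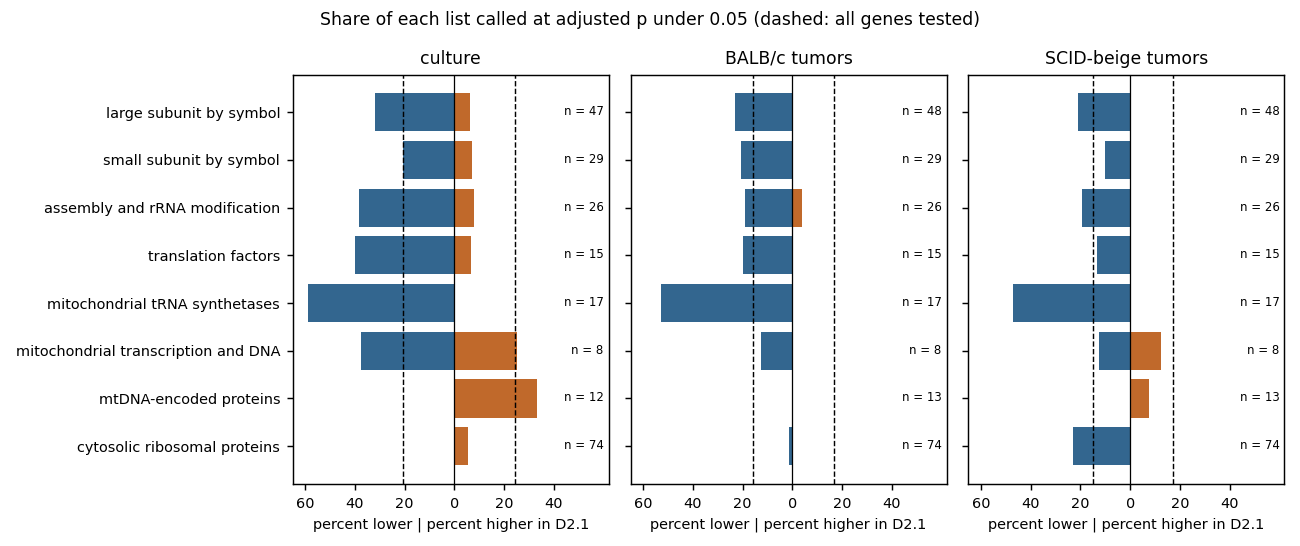
Percent of the genes tested in each list that were called lower (left of 0) or higher (right of 0) in D2.1, in the 3 settings. Dashed lines mark the percent among all genes tested, and n is the number tested in the list. Mitochondrial tRNA synthetases reach 58.8%, 52.9% and 47.1% lower, whereas proteins encoded by mitochondrial DNA have 0 lower in all 3.

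Myc, a transcription factor that drives genes of ribosome and mitochondrial synthesis, moved with the lines. It was at 305 ± 57.5 CPM in D2A1 and 99.1 ± 4.0 CPM in D2.1 cells (n = 3 each), at 293 ± 49.6 and 70.1 ± 19.1 CPM in BALB/c (n = 4 each) and at 311 ± 111 and 118 ± 54.9 CPM in SCID-beige tumors (n = 5 each). The log2 fold changes were -1.59 ± 0.15, -2.06 ± 0.21 and -1.39 ± 0.29 (adjusted p = 4.7e-05, 5.4e-05 and 0.0026, edgeR). The proliferation marker Mki67 did not pass the test in any of the 3 comparisons (0.22 ± 0.20, 0.19 ± 0.29 and 0.38 ± 0.19, adjusted p = 0.43, 0.66 and 0.14). The part of Myc in the members' levels was not tested.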

How the data were processed

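RNA from cultured cells and whole tumors was sequenced on an Illumina NovaSeq. The submitters' processing notes name STAR and mm10, while the counter, its annotation and its strand setting are not given in the sources used here. The authors deposited raw counts per gene and FPKM for each library, in separate tables for cells and tumors. Gene models and overlaps came from GENCODE M21 (GRCm38). Counts were tested with edgeR 4.0.16 (limma 3.58.1, R 4.3.3): TMM scaling, filterByExpr, robust quasi-likelihood F-tests and Benjamini-Hochberg adjustment over all genes tested, with 0.05 as the threshold. Each fit held the libraries of its own comparison and no covariates. Interactions used genes listed in both tables. Errors of fold changes are standard errors and those of levels SD. CPM used TMM factors over all 24 libraries. FPKM was not tested. DESeq2 1.42.0, its size factors, other filters, length and GC offsets, the replicate block and each library left out were alternatives. The edgeR test was also run on simulated data with changes larger than those of any member, so that this run does not cover changes of the members' size.

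Deviations of same-numbered libraries of both lines had r = 0.218 to 0.543 in culture and 0.136 to 0.573 in BALB/c mice. Of these libraries, 4 of 6 and 3 of 8 went best with their own number. Nothing states that the numbers pair libraries, so the block is an alternative only. Depth ran from 13566949 to 24818234 counts, and floors and intervals cover counting error only. Members named were the 3 with the largest called change in each direction and comparison, those called in all 3 line comparisons, those called between hosts or in interactions, the 3 highest and 3 lowest by FPKM, the Mrps18 trio and Mrps36. List genes named were taken from the called ones with the largest change, and not all of these are named. Members and lists were chosen with earlier results of these data known.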

Additional observations from a re-analysis of the deposited data

Results flagged for a closer look

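A change of the line difference between culture and tumors was called for 3 members by edgeR's quasi-likelihood interaction test with Benjamini-Hochberg adjustment. These were 1.32% of members for SCID-beige and 2.63% for BALB/c tumors, against 12.8% and 14.4% of all genes. Mrpl50 had a line difference that was higher by 0.85 (log2) in SCID-beige tumors than in culture (adjusted p = 0.013). Mrpl3 had -0.86 (adjusted p = 0.024) and Mrps27 had -1.06 (adjusted p = 0.042) in BALB/c tumors against culture. The call of Mrpl50 was lost with an offset for GC content. That of Mrpl3 was lost without either of 2 libraries and that of Mrps27 without any one of 10 of the 14. In tumors, 60 groups of values (named members and the members' share of counts) were checked for a sample far from the others. Of these, 0 held one, where chance gives about 1 in 20. Cultured cells, with 3 libraries per line, were not checked.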

How the results depend on the processing

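The median log2 fold change of the members moved by less than 0.269, the pooled SD between libraries, in all 74 other settings and in all 90 fits without one library. This tolerance is larger than every main median but those of the line comparisons in tumors. For the other medians it therefore cannot show that a direction is stable. Counts of called members stayed within 1.5 times in 70 of 82 other settings and 68 of 90 fits without one library, and 0 calls changed direction. Medians reached or crossed 0 in 3 comparisons: that of hosts in D2A1 tumors (-0.09) was 0.00 without BALB/c replicate 2 and 0.03 without SCID-beige replicate 2, that of the line difference between hosts (-0.09) was 0.05 without D2A1 BALB/c replicate 3, and that of SCID-beige tumors against culture (-0.13) was 0.00 with a length offset and without D2A1 cells replicate 3 or D2A1 SCID-beige replicate 2. With the replicate block the count was 43 in culture and 43 in BALB/c tumors, with a length offset added 43 and 38, and with a GC offset added 46 and 40. In SCID-beige tumors (r = -0.167 to 0.408, 7 of 10 best with their own number) the block gave 19, with a length offset 20 and with a GC offset 23. Between hosts (r = -0.526 to 0.185) the block gave 0 calls in each line. Without D2.1 BALB/c tumors 1 and 4 the count was 6 in BALB/c and 1 in its interaction with culture, which was also 1 with DESeq2's size factors. The SCID-beige interaction with culture gave 3 with a length offset. Leaving out one library gave 11 to 33 in culture, 7 to 21 in BALB/c, 9 to 21 in SCID-beige, 1 to 2 in the SCID-beige and 0 to 4 in the BALB/c interaction. Of calls for named members, 348 of 375 were kept in other settings and 18 of 35 without any one library. The GC offset was chosen after seeing the data. Calls among all genes change with the setting too, so that these counts are no trait of the members alone. The cause of these changes was not tested. Fits without one library rest on as few as 2 libraries of a line.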
